A study of Sus scrofa with 4 samples.

Results

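The 37 genes described here separated the indigenous from the introduced pig breeds in back muscle by at least 2-fold with no overlap between the libraries, and they were chosen by filters and criteria from 18208 genes measured. Each library came from the longissimus dorsi muscle, which runs along the spine, of 1 of 4 breeds, with 1 library per breed. Diannan Small Ear (DSP) and Tibetan (TP) pigs formed the indigenous Chinese type, and Landrace (LL) and Yorkshire (YY) pigs formed the introduced type. The labels name no treatment, and they do not give the number, age, sex or feeding of the animals behind a library, so the spread within a type is that between 2 breeds. The study set out to find genes related to growth and to lipid deposition in muscle.

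Levels are FPKM, fragments mapped to a gene scaled by its length and by the size of the library, as the authors deposited them. The members were taken among 11507 genes whose mean was no less than 1 FPKM and whose deposited locus spanned no less than 300 bp. In each of them the lower value of 1 type lay at least 1 above the higher value of the other type on the log2(FPKM + 1) scale, and this distance is called the gap below. FASN, STAC, APLN, CXCL10 and ZFAND2A met the same criteria and were left out. Of the 37 members, 14 were higher in the indigenous type and 23 in the introduced type. With the 5 left-out genes, 0.148% of the 11507 genes met the criteria upward in the indigenous type and 0.217% upward in the introduced type, 0.365% in all. The members were chosen by these same FPKM values, so the separation is described and not tested.

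The members belong to no single pathway. They include transcriptional regulators (IRX3, NR4A1, HR, PER2) and molecular chaperones (HSPB8, HSPH1). MYOZ2 and KY are proteins of the muscle Z-disc, the plate that anchors the thin filaments of neighbouring sarcomeres. Others are secreted proteins of the matrix and of growth factor control (CILP, CHRDL2) and proteins of lipid metabolism (ELOVL6, ABHD16A). Skeletal muscle tunes many of these genes to use and metabolic state. The Z-disc senses stretch, chaperones clear damaged filament proteins, NR4A receptors answer nerve activity and hormones, and the circadian clock sets the daily course of fuel use. Landrace and Yorkshire pigs are known as lean, fast-growing breeds and the indigenous Chinese breeds as slower growing and fatter.

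The libraries carried the markers of skeletal muscle. All 6 of the 11 listed muscle markers that had an entry were abundant in every library, with summed levels of 77662 (DSP) and 85781 (TP) FPKM against 35593 (LL) and 111239 (YY). The deposited values summed to between 880279 and 1450760 FPKM per library, between 1355 and 2422 genes per library were listed at 0, and read depth was not given. Markers of other cells leaned mostly to the indigenous type: all 4 endothelial, all 4 smooth muscle, all 3 red blood cell, both Schwann cell and 3 of 4 macrophage and leukocyte genes past the filters did so. In each of these 5 lists the summed level was highest in TP, for red blood cell genes 528 FPKM against 80.9 to 171 in the other libraries. Their part in the differences below was not tested. Limma, fitted to all 11652 genes whose mean was no less than 1 FPKM, with breeds as replicates, passed 0 genes (0%) between the types after Benjamini-Hochberg adjustment, with a smallest adjusted p of 0.263. It had 130 genes (1.12%) at an unadjusted p under 0.05. In 18.7% of the 11507 genes the types did not overlap at all, 9.54% higher in the indigenous and 9.12% higher in the introduced type. Median differences between the types were −0.02 over all genes, −0.04 after rescaling to a common median ratio and 0.09 after rescaling to a common sum, a shift of 0.11.

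**Figure D1:**
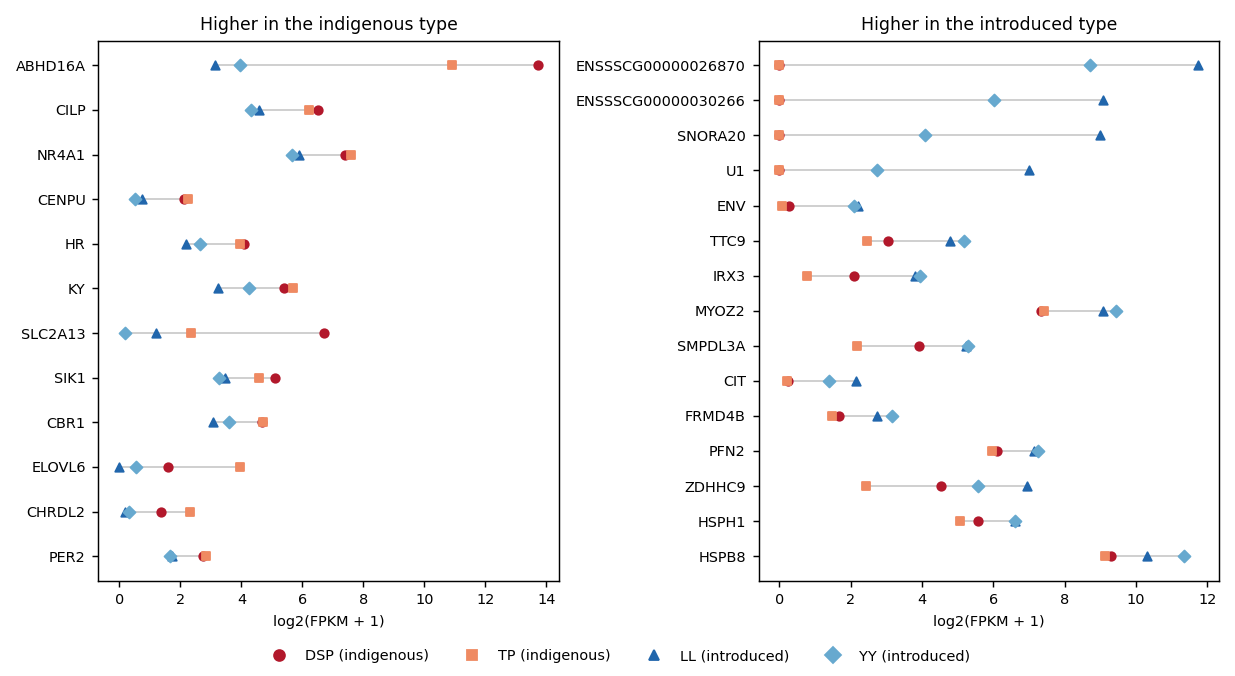
Level of named members in each library, on the horizontal axis as log2(FPKM + 1), for 12 of the 14 members higher in the indigenous type and 15 of the 23 higher in the introduced type, ordered by the gap. Each point is 1 library, the grey line spans the 4 values, and 8 members that carry only a gene ID are not drawn. Most gaps lie near 1, and the widest belong to ABHD16A and entries listed at 0 in both libraries of a type.

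The gap ranged from 1.004 to 6.93 among the members higher in the indigenous type, with a median of 1.14, and from 1.01 to 8.71 among those higher in the introduced type, with a median of 1.33. The plot of each member's level by library shows this spread. PER2, HSPB8 and HSPH1 lay nearest the limit, with gaps of 1.004, 1.010 and 1.012. Just outside it lay NMNAT1, an enzyme of NAD synthesis (0.99), the unnamed ENSSSCG00000030066 (0.98) and RABL3 (0.96).

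KY and MYOZ2, both proteins of the Z-disc, differed in opposite directions. KY, a muscle peptidase whose loss bends the spine in mice, was read at chromosome 13, 83261533 to 83308188. It was 40.7 FPKM for DSP, 51.1 for TP, 8.39 for LL and 17.9 for YY, 3.49-fold higher on average in the indigenous type. MYOZ2, which encodes calsarcin and binds alpha-actinin and the phosphatase calcineurin in slow and cardiac fibres, was read from a locus of 1461 bp on chromosome 8, 112388714 to 112390175. It was 162 and 168 FPKM in DSP and TP against 537 and 687 in LL and YY. The 2 indigenous breeds were nearly equal, and the introduced mean of 612 ± 107 FPKM (SD, n = 2) was 3.71-fold the indigenous mean of 165 ± 4.70 (SD, n = 2).

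Among the other 13 measured genes of the Z-disc and its partners, 5 leaned to the indigenous type and 8 to the introduced, with a median difference of −0.21. MYOZ1 and MYOZ3, the relatives of MYOZ2, overlapped between the types. MYOZ1 was 2191 (DSP) and 2204 (TP) FPKM against 1295 (LL) and 5303 (YY), and MYOZ3 was 3725, 578, 1623 and 1244 FPKM. CSRP3, a stretch-sensing protein that binds the Z-disc, was the 1 other gene of the list in which the types did not overlap, at 290 FPKM for DSP, 53.4 for TP, 391 for LL and 577 for YY. The slow myosin MYH7, a marker of slow fibres, was 1115 and 810 FPKM in DSP and TP against 1807 and 1391 in LL and YY, so it was higher in both introduced libraries like MYOZ2. Whether the share of slow fibres has a part in the MYOZ2 difference was not tested.

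PFN2 and CIT act on the actin skeleton and were higher in the introduced type. PFN2, a profilin that hands actin monomers to growing filaments, was 68.1 (DSP) and 61.0 (TP) FPKM against 140 (LL) and 152 (YY). Its relative PFN1 was 86.1, 142, 66.9 and 163 FPKM and overlapped between the types. CIT, the citron kinase of the final step of cell division, was low throughout, at 0.181 FPKM for DSP, 0.159 for TP, 3.43 for LL and 1.64 for YY. The kinases ROCK1 and ROCK2, relatives of CIT, had differences of 0.24 and −0.04. The 6 other actin regulators measured were PFN1, ROCK1, ROCK2, RHOA, CFL1 and CFL2. Of these, 3 leaned to each type (median 0.02), and the types overlapped in all 6.

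NR4A1 and SIK1, early-response genes, were higher in the indigenous type. NR4A1, an orphan nuclear receptor that in mouse muscle raises genes of glucose use, was read from a 1767 bp locus on an unplaced scaffold. It was 169 and 193 FPKM in DSP and TP against 58.4 and 49.2 in LL and YY, with means of 181 ± 17.1 and 53.8 ± 6.50 FPKM (SD, n = 2 each). SIK1, a salt-inducible kinase that holds CREB coactivators and class II histone deacetylases in the cytoplasm, was 33.4 (DSP) and 23.0 (TP) FPKM against 10.04 (LL) and 8.67 (YY). Both were therefore about 3-fold higher on average in the indigenous type, by 3.36 and 3.01-fold.

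Their relatives and partners did not follow as a group. Of 11 others measured, 4 leaned to the indigenous and 7 to the introduced type, with a median of −0.13. NR4A2, the close relative of NR4A1, was 34.6 FPKM in TP and between 2.89 and 6.30 in the other libraries. HDAC9, a class II deacetylase, was higher in the introduced type, at 17.0 FPKM in LL and 8.86 in YY against 4.68 in DSP and 3.09 in TP. FOS and ATF3, immediate early genes that answer handling and injury, were highest in TP at 641 and 394 FPKM. FOS was 47.1, 112 and 109 FPKM in DSP, LL and YY, and ATF3 was 34.3, 25.3 and 52.7 FPKM in the same libraries. The part of handling in the NR4A1 and SIK1 values was not tested. The 10 members of the immediate early and heat shock list other than HSPH1 split 4 to 6, with a median of −0.08.

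PER2, a repressor of the circadian clock, was named through its gene ID and lay at chromosome 15, 152264831 to 152286818. It was 5.65 FPKM for DSP, 6.19 for TP, 2.32 for LL and 2.17 for YY, 2.64-fold higher on average in the indigenous type. It lay nearest the limit of the gap and left the set in 4 of the 11 alternatives, both rescalings among them. PER3, its relative, ran the same way at 4.69, 3.42, 2.25 and 1.36 FPKM, as did HLF, a clock output factor, at 19.6, 9.20, 6.99 and 6.88 FPKM. ARNTL and NPAS2, the activators that the PER proteins repress, ran the opposite way: ARNTL was 1.34 and 1.59 FPKM in DSP and TP against 3.69 and 3.49 in LL and YY. NPAS2 was 0.933 (DSP) and 0.780 (TP) FPKM against 1.90 (LL) and 3.00 (YY). NR1D1, a repressor of ARNTL, was 18.1, 12.2, 22.01 and 71.4 FPKM and also higher in both introduced libraries, most in YY. The gap of NR1D1 was 0.27, and it shares its deposited locus with another entry.

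In all, 5 of the other 12 clock genes did not overlap between the types, 2 higher in the indigenous and 3 in the introduced, where 18.7% of all genes did not overlap, and 7 leaned to the indigenous type (median 0.20). PER1, CLOCK, CRY1, CRY2, DBP, NR1D2 and RORA overlapped. None of the 12 passed limma over all genes. The clock list was made after the values were seen, so these counts are described and not tested. The labels give no time of day for the collection of the muscle, and its part in these values was not tested.

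**Figure D2:**
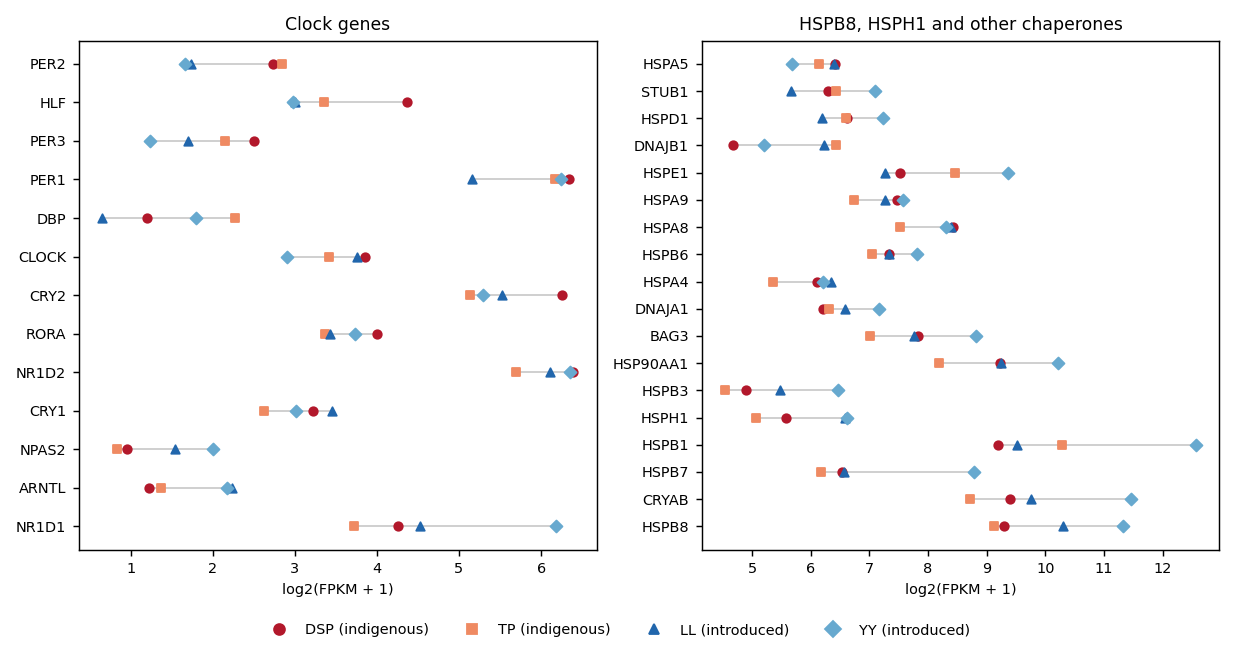
Levels of the measured clock genes (left) and of HSPB8, HSPH1 and other chaperones (right) by library, as log2(FPKM + 1), ordered by the difference between the types. Each point is 1 library. PER2 and PER3 lie higher in the indigenous libraries and ARNTL and NPAS2 lower, while several chaperones have their highest point in YY.

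HR encodes hairless, a corepressor that works with the thyroid hormone, vitamin D and ROR receptors and is best known from the hair cycle of skin. Its locus was chromosome 14, 6822067 to 6840035. It was 15.8 FPKM for DSP, 14.4 for TP, 3.56 for LL and 5.26 for YY, 3.43-fold higher on average in the indigenous type. Keratinocyte markers were nearly absent in every library: the 2 of 4 that had an entry summed to 0.961 and 0.767 FPKM in DSP and TP against 0.380 and 0.989 in LL and YY. Of 9 nuclear receptors and corepressors measured beside HR, 5 leaned to the indigenous and 4 to the introduced type, with a median of 0.02. The thyroid hormone receptor THRA was 44.6 (DSP) and 35.6 (TP) FPKM against 37.2 (LL) and 50.8 (YY), so it overlapped between the types. THRA shares its deposited locus with another entry.

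IRX3, an Iroquois homeobox factor, was higher in the introduced type. It lies at chromosome 6, 28168073 to 28170875, and the region of FTO that bears on body weight in humans contacts it. IRX3 was 3.23 FPKM for DSP, 0.715 for TP, 12.9 for LL and 14.4 for YY. The introduced libraries were close to each other, whereas DSP was above TP by 1.30 on the log2(FPKM + 1) scale. Its mean was 6.92-fold higher in the introduced type, and it stayed a member in each of the 11 alternatives fixed for processing. Of these, a pseudocount of 0.1 and the settings without a mean or span filter cannot remove a member. IRX5, the neighbouring Iroquois gene, was 0.886 and 0.0974 FPKM in DSP and TP against 0.946 and 2.23 in LL and YY. It was lowest in TP like IRX3, but DSP and LL were nearly equal. Of the 8 genes listed for the Iroquois family and its neighbours, 4 had an entry and 2 passed the filters.

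CILP and CHRDL2 encode secreted proteins and were higher in the indigenous type. CILP, a matrix protein of cartilage and connective tissue that restrains transforming growth factor beta, lay at chromosome 1, 180762059 to 180777585. It was 90.9 (DSP) and 73.6 (TP) FPKM against 22.9 (LL) and 19.0 (YY), means of 82.2 ± 12.2 and 20.9 ± 2.76 FPKM (SD, n = 2 each). This was a 3.93-fold difference, while DSP and TP were 0.30 and LL and YY 0.26 apart on the log2(FPKM + 1) scale, and CILP stayed a member in all 11 alternatives. All 6 fibroblast and matrix markers leaned the same way, with a median of 1.61. Their summed level was 700 FPKM for DSP, 892 for TP, 542 for LL and 131 for YY, and none was listed at 0. LL had summed markers at 77.4% of the DSP sum and CILP at 25.2% of the DSP value, and YY had them at 18.8% and 20.9%. The part of these markers in the CILP difference was not tested. In bulk tissue, fewer cells of a type and less RNA per cell cannot be told apart. Of the 10 other matrix genes set beside CILP, 7 leaned to the indigenous type and 3 to the introduced (median 0.71). Lumican (LUM) and fibromodulin (FMOD) were the 2 of these 10 in which the types did not overlap, where 18.7% of all genes did not overlap. Their gaps were 0.40 and 0.09. LUM and DCN are also among the 6 markers, so the counts of the 2 lists are not separate.

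CHRDL2, a chordin-like protein that binds bone morphogenetic proteins (BMPs) and keeps them from their receptors, was lowly expressed. It lies at chromosome 9, 10070247 to 10088542, and was 1.55 and 4.003 FPKM in DSP and TP against 0.133 and 0.232 in LL and YY. TP carried the highest value, and CHRDL2 left the set in 5 of the 11 alternatives, the most of any member. One of these was without TP, where its gap was still 1.05 and only its mean, 0.637 FPKM, fell under the minimum of 1. CHRDL1, its relative, was 5.21, 8.80, 7.37 and 2.40 FPKM in DSP, TP, LL and YY and overlapped between the types. Among the 18 other BMP ligands, antagonists, receptors and effectors measured, 12 leaned to the indigenous and 6 to the introduced type, with a median of 0.19. ID1, a target gene of BMP signalling, was 39.8 FPKM in TP and 7.47, 6.06 and 6.85 in DSP, LL and YY. BMP4, a ligand, was higher in the introduced type, at 3.00 FPKM in LL and 2.77 in YY against 1.48 in DSP and 2.03 in TP.

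ELOVL6, an enzyme of lipid synthesis that elongates palmitate to stearate, was higher in the indigenous type. It was 2.03 (DSP) and 14.4 (TP) FPKM against listed at 0 (LL) and 0.465 (YY). TP was 2.34 above DSP on the log2(FPKM + 1) scale, so the height of the indigenous mean rested on TP. Without TP its gap was still 1.05, since DSP is the lower indigenous value, but its mean of 0.832 FPKM over the other libraries fell under the minimum of 1. Its partners in fatty acid synthesis behaved alike in part: ACLY, which makes the acetyl-CoA building block, was 7.02 FPKM for DSP, 23.8 for TP, 6.27 for LL and 2.27 for YY. SCD, a desaturase, and ELOVL5, an elongase, also did not overlap between the types, with differences of 3.30 and 1.48, and SCD was 141 FPKM in TP against 4.08 in DSP. ME1 and AGPAT2 overlapped, at −0.10 and −0.05, and LPIN1 was lower in TP, at 11.3 FPKM, than in the 3 other libraries, at 55.4 to 61.9. Of the 7 genes of this list measured beside ELOVL6, 4 leaned to the indigenous and 3 to the introduced type. These 7 include FASN, which met the same criteria and was left out by name, so its direction was fixed by the choice. Their median of 1.48 counts FASN, at 2.69, and is no measure of the other genes, where ACLY was at 1.53 and LPIN1 at −1.18. Both other elongases past the filters, ELOVL5 again and ELOVL7, leaned to the indigenous type (median 0.97). ELOVL7 overlapped between the types, at 0.816 (DSP) and 1.86 (TP) FPKM against 1.15 (LL) and 0.289 (YY). The only adipocyte marker past the filters, PLIN1, was 1.80 and 11.5 FPKM in DSP and TP against 1.38 and 1.01 in LL and YY. It is high in TP like ELOVL6, and its part in the difference was not tested.

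ABHD16A acts on phospholipids, and SMPDL3A is named for its likeness to acid sphingomyelinase. ABHD16A, a lipase that makes lysophosphatidylserine, was read from a locus of 2128 bp at chromosome 7, 27448890 to 27451018. It was 13630 FPKM for DSP, 1896 for TP, 7.71 for LL and 14.5 for YY. DSP was 2.84 above TP on the log2(FPKM + 1) scale, and even the lower indigenous value was 130-fold the higher introduced one, the widest gap in its direction. This locus and those of NR4A1 and MYOZ2 are short, and whether their values stand for the whole gene was not tested. SMPDL3A, an acid sphingomyelinase-like phosphodiesterase, was higher in the introduced type, at 36.8 FPKM in LL and 37.7 in YY against 14.04 in DSP and 3.54 in TP. Its introduced values were nearly equal and its indigenous ones 1.73 apart on the log2(FPKM + 1) scale.

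SLC2A13, a myo-inositol carrier, differed more between DSP and TP than any other member. It was 104 FPKM in DSP but 4.05 in TP, with 1.30 in LL and 0.141 in YY, so DSP and TP differed by 4.37 on the log2(FPKM + 1) scale. A second entry of the same symbol, spanning 142309 bp on the same chromosome, was at or below 0.328 FPKM in every library. SLC2A4, the insulin-responsive glucose carrier of muscle, overlapped between the types at 121, 78.3, 74.7 and 109 FPKM. SLC2A12, another sugar carrier, did not overlap, at 10.5 and 9.04 FPKM in DSP and TP and 4.66 and 5.52 in LL and YY. The 5 other sugar and inositol genes measured split 3 to 2.

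CBR1, a carbonyl reductase that acts on prostaglandins and reactive carbonyls, was 24.5 and 25.2 FPKM in DSP and TP against 7.47 and 10.98 in LL and YY. The indigenous values were almost the same, 24.9 ± 0.524 FPKM (SD, n = 2). ZDHHC9, which attaches palmitate to Ras proteins, was higher in the introduced type, at 122 FPKM in LL and 45.9 in YY against 22.1 in DSP and 4.36 in TP. Its values varied within both types, by 2.11 between DSP and TP and 1.39 between LL and YY. Of 13 other palmitoyltransferases, 4 leaned to the indigenous and 9 to the introduced type, with a median of −0.14. ZDHHC9 was the 1 member on chromosome X. UTY, the only Y-linked marker with an entry, was 1.90 (DSP) and 2.61 (TP) FPKM against 3.50 (LL) and listed at 0 (YY). It shares its locus with another entry, the labels give no sex, and the part of sex in the ZDHHC9 difference was not tested.

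**Figure D3:**
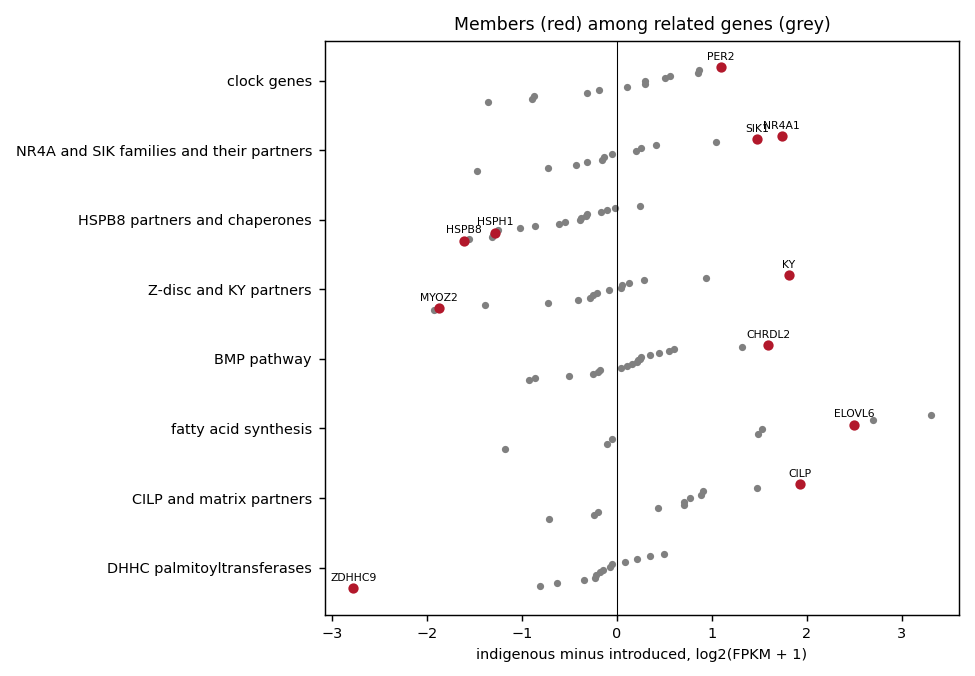
Difference between the types, indigenous minus introduced as means of log2(FPKM + 1), for members (red, named) and the other measured genes of 8 related lists (grey), 1 point per gene. Medians of the related genes run from −0.46 (chaperones) to 1.48 (fatty acid synthesis, FASN among them). The members stand away from 0 by the way they were chosen, and the chaperones other than HSPA5 lie to the left of 0.

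HSPB8 and HSPH1 help damaged proteins to refold or be cleared and were higher in the introduced type. HSPB8, a small heat shock protein that forms a complex with BAG3 and marks worn filament proteins for autophagy, lay at chromosome 14, 35688332 to 35701411. It was 626 FPKM for DSP, 559 for TP, 1262 for LL and 2572 for YY, and YY was 1.03 above LL on the log2(FPKM + 1) scale. HSPH1, a nucleotide exchange factor for heat shock proteins of the HSPA family, was 46.8 and 32.4 FPKM in DSP and TP against 95.3 and 96.7 in LL and YY. Both lay just past the limit of the gap and left the set after rescaling to a common sum.

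Their partners leaned the same way. Of 16 other chaperones and partners, 15 leaned to the introduced type and 1, HSPA5, to the indigenous, with a median of −0.46, where 5997 of the 11470 genes that are no members leaned to the introduced type. Of the 16, 6 did not overlap between the types, all higher in the introduced type, where 9.12% of all genes lay so. None of the 16 passed limma over all genes. This list was made after the values were seen, so its counts are described and not tested. The list's summed level was 4161 (DSP) and 3991 (TP) FPKM against 5166 (LL) and 15665 (YY), so YY held most of it. BAG3 was 227 FPKM for DSP, 127 for TP, 214 for LL and 448 for YY, and CRYAB, another small heat shock protein, was 674, 418, 862 and 2810. HSPB1 was 586, 1246, 733 and 6058 FPKM in the same order and overlapped between the types. HSPH1 did not share the peak in YY, where it was nearly equal to LL.

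TTC9, FRMD4B and CENPU are the remaining named protein genes. TTC9, a protein of tetratricopeptide repeats known from hormone-treated human breast cancer cells, lay at chromosome 7, 100536076 to 100574731. It was 7.23 and 4.53 FPKM in DSP and TP against 26.7 and 35.3 in LL and YY, 5.28-fold higher on average in the introduced type, and it was kept in all 11 alternatives. Its relative TTC9C was 11.2 (DSP) and 3.01 (TP) FPKM against 11.8 (LL) and 6.28 (YY) and overlapped. FRMD4B, a FERM domain scaffold, was low and even within each type, at 2.20 FPKM for DSP, 1.80 for TP, 5.72 for LL and 7.93 for YY.

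CENPU, a subunit of the inner kinetochore that links centromeric chromatin to the spindle, was named through its gene ID. It was 3.36 and 3.78 FPKM in DSP and TP against 0.687 and 0.433 in LL and YY, 6.37-fold higher on average in the indigenous type. Its locus, chromosome 15, 52433809 to 52518969, is shared with PRIMPOL, a primase-polymerase of DNA repair, at 0.903, 1.78, 0.743 and 0.361 FPKM. PRIMPOL did not overlap between the types either, with a gap of 0.13. Of the 6 other centromere proteins past the filters, 4 leaned to the indigenous and 2 to the introduced type, with a median of 0.13, and 1, CENPC, did not overlap, at 3.04 and 3.00 FPKM against 2.98 and 2.25. CENPQ, a direct partner of CENPU, was 3.78 (DSP) and 3.30 (TP) FPKM against 2.93 (LL) and 3.43 (YY). Only 2 of the 17 listed genes of cell division passed the filters, PCNA and CCNE1, with differences of 0.27 and −0.30.

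The other 13 members were 3 entries with the names SNORA20, U1 and ENV and 10 entries with a gene ID alone (18.9% of all 11507 genes had only an ID), all higher in the introduced type. SNORA20, a small nucleolar RNA that guides pseudouridylation, was listed at 0 in DSP and TP and was 502 FPKM in LL and 15.8 in YY. Its deposited locus of 22676 bp is shared with 3 entries, among them TCP1, a chaperonin subunit, at 55.8 FPKM for DSP, 40.8 for TP, 44.2 for LL and 74.3 for YY. TCP1 overlapped between the types, which the SNORA20 entry did not. The U1 entry, a spliceosomal RNA, was 128 FPKM in LL, 5.63 in YY and listed at 0 in DSP and TP, whereas another U1 entry at the same locus was 135 FPKM in DSP, 5.63 in YY and listed at 0 in TP and LL. The table holds 17 entries named U1, 5 of them with exactly the same value in YY, and their sums were 1351 and 41.5 FPKM in DSP and TP against 1659 and 96.6 in LL and YY. Reads of near-identical copies can be assigned to either copy, and summed over copies U1 overlapped between the types.

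**Figure D4:**
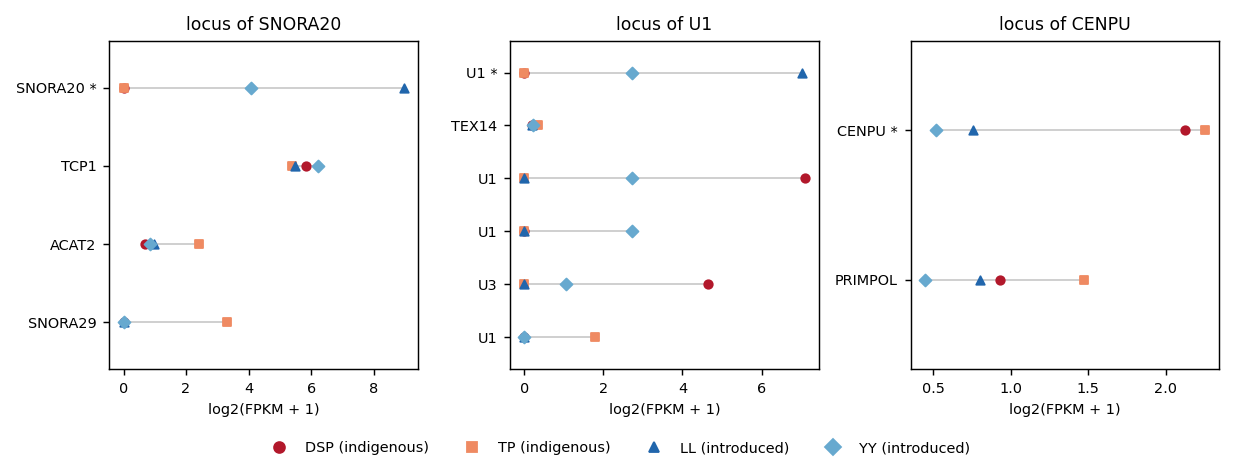
Levels by library, as log2(FPKM + 1), of members (marked by an asterisk) and of the other entries at the same deposited locus (SNORA20, U1, CENPU). Each point is 1 library, and each panel has its own horizontal scale. The entries around SNORA20 and U1 do not share the order of the member.

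ENV carries the name of retroviral envelope genes. It was 3.62 FPKM in LL and 3.27 in YY against 0.203 in DSP and 0.0599 in TP, and a second ENV entry ran the same way at 0.670 and 0.446 FPKM against 0 and 0.0296. Of the 10 entries without a name, ENSSSCG00000026870 and ENSSSCG00000030266 had the widest gaps. ENSSSCG00000026870 was listed at 0 in DSP and TP and was 3436 FPKM in LL and 419 in YY. ENSSSCG00000030266 was likewise listed at 0 in DSP and TP and was 539 FPKM in LL and 64.1 in YY. Each shares its locus with a protein gene that overlapped between the types, EFCAB14 and TEAD4, respectively.

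Members listed at 0 were more common in the introduced direction, by count. At least 1 library was at 0 in 9 of the 23 members higher in the introduced type, in 2 of the 14 higher in the indigenous type and in 1.63% of all 11507 genes. A 0 in the lower type widens the gap that chose the members, so nothing is read from the excess over all genes. A locus was shared with another entry in 5 of the 37 members and in 13.6% of all genes, and 5 members lay on unplaced scaffolds, against 8.6%. Without shared loci, scaffolds and small RNA names, an alternative chosen after the data were seen, 11 members were left in the indigenous and 16 in the introduced direction.

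The members also varied within each type. The choice used these same values, and its minimum mean let some members in through 1 high library, such as ELOVL6 through TP. The counts below are therefore described beside those of all genes, and nothing is read from their difference. Among the 23 higher in the introduced type, LL was at least 2-fold above YY in 8 and YY above LL in 1 (HSPB8), against 12.5% and 16.4% of all genes. Many of these 8 were entries listed at 0 elsewhere: among the 11 with a protein name and a placed locus of their own, LL was 2-fold above YY in 1 (ZDHHC9) and YY above LL in 1. DSP was at least 2-fold above TP in 3 of the 14 members higher in the indigenous type (ABHD16A and SLC2A13 among them), against 15.1% of all genes. TP was 2-fold above DSP in 1 of them (ELOVL6), against 7.43%. Among the 11 introduced members just described, DSP lay above TP in 10, at least 2-fold in 3 (IRX3, SMPDL3A and ZDHHC9), where DSP lay above TP in 60.8% of all genes. With 1 library per breed these within-type differences have no replicate check.

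**Figure D5:**
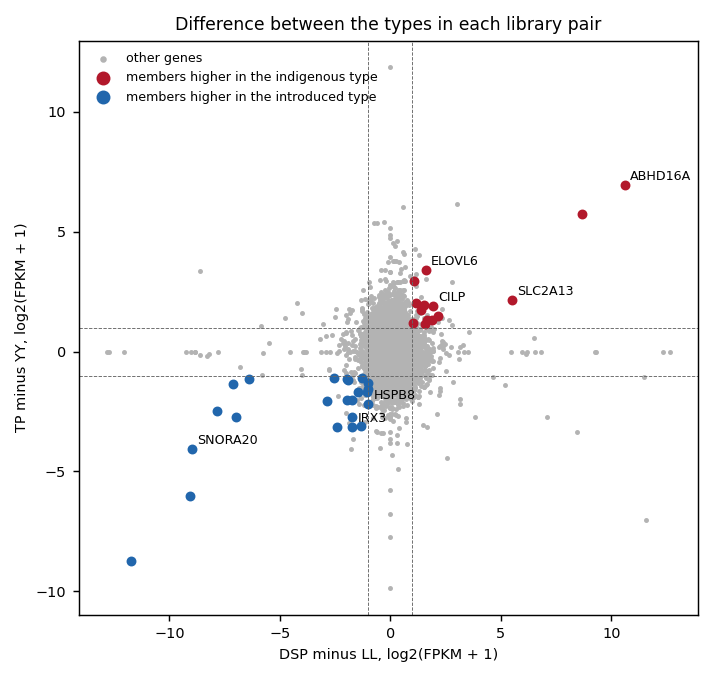
Difference of log2(FPKM + 1) between DSP and LL on the horizontal axis and between TP and YY on the vertical axis for the 11507 genes past the filters, 1 point per gene, with members in red and blue and dashed lines at 1 and −1. The members fill the upper right and lower left corners by construction, and most of the widest differences among other genes lie in 1 pair only.

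Across the 11507 genes past the filters, DSP correlated most with LL (Pearson r = 0.923) and TP with YY (r = 0.924), both above the pairs within a type (r = 0.869 in the indigenous and 0.842 in the introduced type). This describes the 4 libraries, since genes are not independent replicates and the libraries share their processing. The types were therefore also set side by side within each such pair. Both differences were at least 1 in the indigenous direction in 45 genes and in the introduced direction in 48, the 37 members and the left-out genes among them. The plot of these pairs shows SLC2A13 at 5.51 for the first pair and 2.15 for the second, and ELOVL6 at 1.60 and 3.39. CILP was more even, at 1.94 and 1.90, while HR was at 1.88 and 1.30 and IRX3 at −1.72 and −3.16.

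The members lay on 13 chromosomes and 5 scaffolds. CIT and HSPB8, both higher in the introduced type, were the only 2 of the 37 within 1000000 bp of each other, with 545635 bp between them on chromosome 14. PRKAB1, a subunit of the energy sensor AMPK, was the 1 gene between them that passed the filters. It was 2.60 (DSP) and 3.09 (TP) FPKM against 3.18 (LL) and 4.87 (YY), a gap of 0.03 in the same direction. The genome build behind the positions is not given in the sources used here.

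How many genes met the criteria depended on the settings. With a pseudocount of 5, which draws low values together, 4 were left in the indigenous and 11 in the introduced direction, and with 0.1 there were 37 and 39. After rescaling to a common median ratio, 8 and 24 met the criteria. Leaving out a library loosened the criteria, since 1 type then stood on 1 library: 289 and 314 genes met them without DSP, 196 and 67 without TP, 353 and 375 without LL, and 204 and 165 without YY. Not all of the 11 alternatives fixed for processing can remove a member. A pseudocount of 0.1 and no mean or span filter cannot, and leaving out a library can only through the mean. Of the 37 members, 13 were kept under all 11. Named among them were ABHD16A, CILP and NR4A1 in the indigenous direction, and IRX3, TTC9, MYOZ2, SMPDL3A, SNORA20 and U1 in the introduced direction. HR was lost only with a pseudocount of 5, and CENPU with that pseudocount and with a minimum mean of 5 FPKM.

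The authors' deposited table gives a false discovery rate under 0.05 to 21 of the 37 members, 6 of 14 and 15 of 23, against 4.61% of the 11507 genes. It rests on the same contrast that chose the members, and nothing is read from the excess. Limma, whose p-values measure the spread between breeds, had a smallest adjusted p of 0.263. The deposited rates are therefore not read as a measure of that spread. In the authors' deposited table HSPB8 had a false discovery rate of 3.64e-164 and CILP one of 4.93e-08, while CENPU, CHRDL2 and PER2 had 1.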

How the data were processed

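RNA was extracted with Trizol and sequenced from TruSeq libraries on an Illumina HiSeq, per the labels. The aligner was TopHat, according to the submitters' processing notes. Not given in the sources used here are the TopHat version, the build, the gene annotation and the FPKM program. The FPKM of each breed, the FPKM of each type, the fold (ratio of the types), the p-value and the false discovery rate are as deposited by the authors. The FPKM in 2 further sheets, with 17444 and 17404 genes, differed from the first in 0 cells. No counts or depths were given, so no counting error was computed. The limma p-values measure only the spread between libraries, and the deposited p-values were not recomputed.

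Names came from the file for 12322 genes and from a reference table by gene ID for 1638. A list symbol with several entries stands for its most abundant entry. The members, lists and alternatives were chosen with earlier results of these data known, and 9 lists (clock, NR4A and SIK, Z-disc, HSPB8 partners, CILP partners, palmitoyltransferases, actin regulators, elongases, sugar carriers) after the values were seen. Named were all members with a symbol except 2 that are not reported here, the 2 unnamed members with the widest gaps, the 3 genes nearest the limit on each side, and genes of the lists. Limma 3.58.1 (trended prior, R 4.3.3) was fitted to log2(FPKM + 1), and its adjusted p-values used a threshold of 0.05; the fit and the member rule were tested on simulated data. Python 3.11.15, numpy 2.4.6, pandas 2.3.3 and matplotlib 3.10.9 did the rest. Alternatives were pseudocounts of 0.1 and 5, no mean filter or 5 FPKM, no span filter, scaling to a common median ratio or to a common sum (leaving out the top 50 genes), each library left out, and a limma prior that is untrended or robust.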

Additional observations from a re-analysis of the deposited data

How the results depend on the processing

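Members higher in the indigenous type numbered 14 as reported, 37 with a pseudocount of 0.1, 4 with a pseudocount of 5 and 8 after scaling to a common median ratio. Members higher in the introduced type numbered 23, 39 with a pseudocount of 0.1 and 11 with a pseudocount of 5. The other planned filters and scalings kept both counts within 1.5 times. With 1 library left out, the counts ran from 196 to 353 and from 67 to 375, since the criteria then bind 3 libraries. Limma passed 0 genes as reported, 3 with a pseudocount of 0.1, all of them members, and 0 to 29 with 1 library left out, the 29 without YY, where LL was assumed to vary like the other type. Over 283 pairs of a named member and an alternative, the difference between the types moved by more than the spread within a type in 26. It reversed in 0, which is no check, since the members were chosen without overlap and these alternatives could not turn their direction. No paired analysis was possible because the labels pair no libraries. Where a member had low FPKM (CIT, CHRDL2, CENPU, ENV), the pseudocount sets much of its gap, and depth is unknown.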
